A study of Mus musculus with 12 samples.

Results

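The genes described here are the MHC class I and II presentation genes H2-Aa, H2-Ab1, H2-Eb1, Cd74, Ciita, H2-DMa, H2-K1, H2-D1, B2m and Tap1 in mouse testis. They were taken by gene symbol from the table of the series, which holds 20788 genes, and 10 of 10 were found. All 10 had enough reads to be tested, as had 16388 genes of the table. Testes of F1 mice at 8 weeks of age were sequenced in 4 groups, each with 3 libraries. Per the study's methods, F1 mice are the offspring of ICR males whose testes were injected with lentivirus at 4 weeks of age, while the series' own design text has the virus given to the F1 testes. The knockdown group came from a mixture of 3 knockdown viruses against the long non-coding RNA lncRNA5251 in the LV3 vector, and the 3NC group from the LV3 control virus. The overexpression group came from a virus that overexpresses lncRNA5251 in the LV5 vector, and the 5NC group from the LV5 vector alone. Each of the 4 groups thus has the LV3 or LV5 vector in its design, and no group without one was analysed here. Whether the F1 testes hold the vector was not tested. In the labels the strain reads "IRC mouse". Whether each library stands for 1 animal is not stated, so a p-value here speaks only of library-to-library spread, some of which may be technical. No promoter or cell type that would limit the virus is named in the sources used here.

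Classical MHC class I molecules stand on most nucleated cells and show peptides from inside the cell to CD8 T cells. Their heavy chains, in the mouse H2-K1 and H2-D1, pair with beta-2-microglobulin (B2m) after the TAP transporter, of which Tap1 is a subunit, has brought peptides into the endoplasmic reticulum. Class II molecules stand mainly on macrophages, dendritic cells and B cells and show peptides from outside the cell to CD4 T cells. H2-Aa and H2-Ab1 encode the alpha and beta chains of the I-A molecule, and H2-Eb1 the beta chain of the I-E molecule. Cd74, the invariant chain, escorts new class II molecules, H2-DMa is a chain of the factor that loads their peptides, and Ciita is the coactivator that switches class II genes on. The testis is known as a tissue in which immune responses are restrained, with resident macrophages between the seminiferous tubules.

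Of the 10 genes, 7 lie in the MHC on chromosome 17 (GRCm38.p6), between positions 33996012 and 35267497, a span of 1.27 Mb. In the order of the chromosome, H2-K1 spans 33996012 to 34000619, H2-DMa 34119693 to 34139101, Tap1 34187556 to 34197225, H2-Ab1 34263227 to 34269418, H2-Aa 34282744 to 34287823, H2-Eb1 34305867 to 34316674 and H2-D1 35263094 to 35267497. The other 3 lie elsewhere, among them B2m on chromosome 2 (122147687 to 122153082) and Ciita on chromosome 16 (10480014 to 10531064). All are annotated as protein-coding. H2-K1 and H2-D1 are near-identical in long stretches, and their estimated reads hold fractions. The way such reads were divided among similar genes was not given in the sources read, so the level of either gene is uncertain. H2 genes also differ between mouse strains, so the level of each allele cannot be told apart from how well its reads match the reference.

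Promoter sequences are shown because class I and class II genes are known to be read through shared short elements. RefSeq promoter windows (GRCm38.p6) were found for 7 of the 10 genes, namely H2-Aa, H2-Eb1, H2-DMa, H2-K1, H2-D1, B2m and Tap1. The 140 bases before the start of 3 of them follow, with the matches in capitals. Each motif was searched on both strands. ATTGG is the CCAAT box read on the other strand. TGACG is a cyclic AMP response half-site. The interferon response element was searched as GAAA, any 2 bases and again GAAA. The capitals of H2-Aa hold TGACG on both strands, which overlap.
H2-Aa, chr17:34287824-34287963, minus strand: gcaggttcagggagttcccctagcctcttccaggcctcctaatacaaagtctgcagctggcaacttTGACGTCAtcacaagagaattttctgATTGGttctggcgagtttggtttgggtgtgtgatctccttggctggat
H2-Eb1, chr17:34305727-34305866, plus strand: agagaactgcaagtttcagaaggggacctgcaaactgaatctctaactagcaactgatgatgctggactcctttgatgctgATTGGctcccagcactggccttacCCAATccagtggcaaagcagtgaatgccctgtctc
B2m, chr2:122147547-122147686, plus strand: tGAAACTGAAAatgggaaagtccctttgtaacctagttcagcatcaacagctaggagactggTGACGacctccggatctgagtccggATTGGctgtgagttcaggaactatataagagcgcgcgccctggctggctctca

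Among 32851 RefSeq windows of 250 bases before a start, ATTGG was found in 33.8%, TGACG in 17.8%, the interferon element in 2.98% and GGGATTCCC (a kappa B site) in 0.301%. Of the 7 genes with a window, 7 held ATTGG (H2-DMa in the other of its 2 windows only), 5 held TGACG (H2-Aa, H2-K1, H2-D1, B2m and Tap1) and 1 held the interferon element (B2m). In H2-Aa, TGACG began 74 bases and ATTGG 48 bases before the start. In B2m the same elements began 78 and 53 bases before it. GGGATTCCC was found in 2 of the 7, the class I heavy chain genes H2-K1 and H2-D1. It is shown for both, in capitals, with 10 bases on either side.
H2-K1, chr17:34000439-34000467, minus strand: cccagggctgGGGATTCCCcatctccaca
H2-D1, chr17:35262914-35262942, plus strand: cccagggctgGGGATTCCCcatctcctca
These stretches of 29 bases differ at 1 position, and the kappa B match begins 110 bases before the start of H2-K1 and 170 bases before that of H2-D1. The H2-K1 start is that of the window table, and the H2-K1 site lies inside the longest span of the gene given above but in no GENCODE exon. The H2-D1 site falls in the first exon of a longer H2-D1 transcript in GENCODE. A match is a description of letters and says nothing of binding in these testes.

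Depth was 12719699 to 15771655 estimated reads per library, with a median of 15273158. The testis label was checked against marker lists. The 13 germ cell markers summed to between 13518 and 18627 CPM (estimated reads scaled to a common library total by edgeR), and none of the 13 germ cell, 9 Sertoli or 8 Leydig markers was at 0 in any library. Before the group comparisons, 2 libraries have to be set apart. The 8 white blood cell markers, among them Ptprc, the CD45 surface protein of white blood cells, summed to 407 CPM in 3NC replicate 2 and 349 CPM in knockdown replicate 1, and to 18.3 to 64.0 CPM in the other 10 libraries. Libraries of 1 group differed beyond sampling noise in each pair, with a chi-square per degree of freedom of 3.50 or more.

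The levels of the genes are compared with each other in the authors' FPKM, which is divided by gene length. B2m was the highest, with a median of 93.5 FPKM over the 12 libraries, before H2-D1 (75.6 FPKM), H2-K1 (61.6 FPKM), Cd74 (28.2 FPKM), H2-Ab1 (19.7 FPKM) and H2-Aa (19.3 FPKM). H2-DMa was at 5.57 FPKM, Tap1 at 3.94 FPKM and H2-Eb1 at 3.06 FPKM, and Ciita was the lowest at 0.17 FPKM. Over the libraries B2m ran from 46.6 to 532 FPKM, H2-D1 from 22.7 to 402 FPKM and H2-K1 from 41.9 to 209 FPKM, so that the first 3 overlapped. H2-Ab1 and H2-Aa also overlapped, at 9.09 to 210 and 7.47 to 253 FPKM. The 3 chains of the class I complexes thus had higher medians than the 3 class II chains.

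H2-Aa was at 17.5, 179 and 7.29 CPM in 3NC replicates 1, 2 and 3, at 231, 21.1 and 27.2 CPM in the knockdown group, at 7.55, 19.1 and 13.5 CPM in 5NC and at 19.1, 11.7 and 12.3 CPM in the overexpression group. H2-Ab1, its beta chain partner, was at 24.7, 150 and 11.1 CPM in 3NC, at 217, 27.4 and 25.2 CPM in the knockdown group, at 18.5, 21.6 and 18.9 CPM in 5NC and at 17.6, 12.7 and 9.60 CPM in the overexpression group. Both chains were high in the same 2 libraries, 3NC replicate 2 and knockdown replicate 1, and reached at most 27.4 CPM in the other 10. Cd74, the invariant chain, was at 29.8, 328 and 10.9 CPM in 3NC, at 454, 37.7 and 55.2 CPM in the knockdown group, at 16.8, 32.5 and 24.5 CPM in 5NC and at 40.5, 26.2 and 20.8 CPM in the overexpression group. Ciita was at 0.662, 13.8 and 0.270 CPM in 3NC, at 15.7, 1.06 and 2.09 CPM in the knockdown group, at 0.562, 2.32 and 1.72 CPM in 5NC and at 0.789, 0.733 and 0.0793 CPM in the overexpression group. Outside the same 2 libraries, Ciita rested on 1 to 33 estimated reads, so its low values carry wide counting error. H2-DMa, a chain of the peptide loading factor, varied least of the class II genes, from 8.33 to 14.2 CPM in those 10 libraries, with 22.1 CPM in 3NC replicate 2 and 30.9 CPM in knockdown replicate 1.

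H2-Eb1 differed from the other class II genes in 1 of these libraries. It was at 5.23, 48.0 and 3.98 CPM in 3NC, at 4.68, 5.38 and 2.90 CPM in the knockdown group, at 2.06, 6.47 and 4.51 CPM in 5NC and at 4.87, 1.80 and 0.793 CPM in the overexpression group. H2-Eb1 was high in 3NC replicate 2 and not in knockdown replicate 1, where H2-Aa, H2-Ab1 and Cd74 had their highest values. The knockdown replicate 1 library held 74 estimated reads of H2-Eb1 beside 3649 of H2-Aa and 3430 of H2-Ab1. The lowest value of H2-Eb1 stood in overexpression replicate 3, the shallowest library, as did those of H2-Ab1, Ciita, H2-DMa and Tap1.

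The class I genes showed the same 2 libraries on top. H2-K1 was at 113, 323 and 68.6 CPM in 3NC, at 324, 77.7 and 109 CPM in the knockdown group, at 71.5, 98.6 and 75.7 CPM in 5NC and at 109, 93.3 and 81.7 CPM in the overexpression group. H2-D1 was at 133, 562 and 38.0 CPM in 3NC, at 629, 99.8 and 178 CPM in the knockdown group, at 59.0, 55.9 and 50.9 CPM in 5NC and at 166, 140 and 111 CPM in the overexpression group. The 3 libraries of the overexpression group all lay above those of 5NC for H2-D1, and not for H2-K1. B2m ran from 33.4 to 82.5 CPM in the 10 other libraries and was at 357 CPM in 3NC replicate 2 and 262 CPM in knockdown replicate 1. Tap1 was at 6.16, 52.6 and 13.4 CPM in 3NC, at 49.1, 6.38 and 15.4 CPM in the knockdown group, at 7.05, 29.5 and 15.9 CPM in 5NC and at 9.60, 4.80 and 2.70 CPM in the overexpression group. Its values in 5NC and the overexpression group overlapped through 5NC replicate 1.

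**Figure D1:**
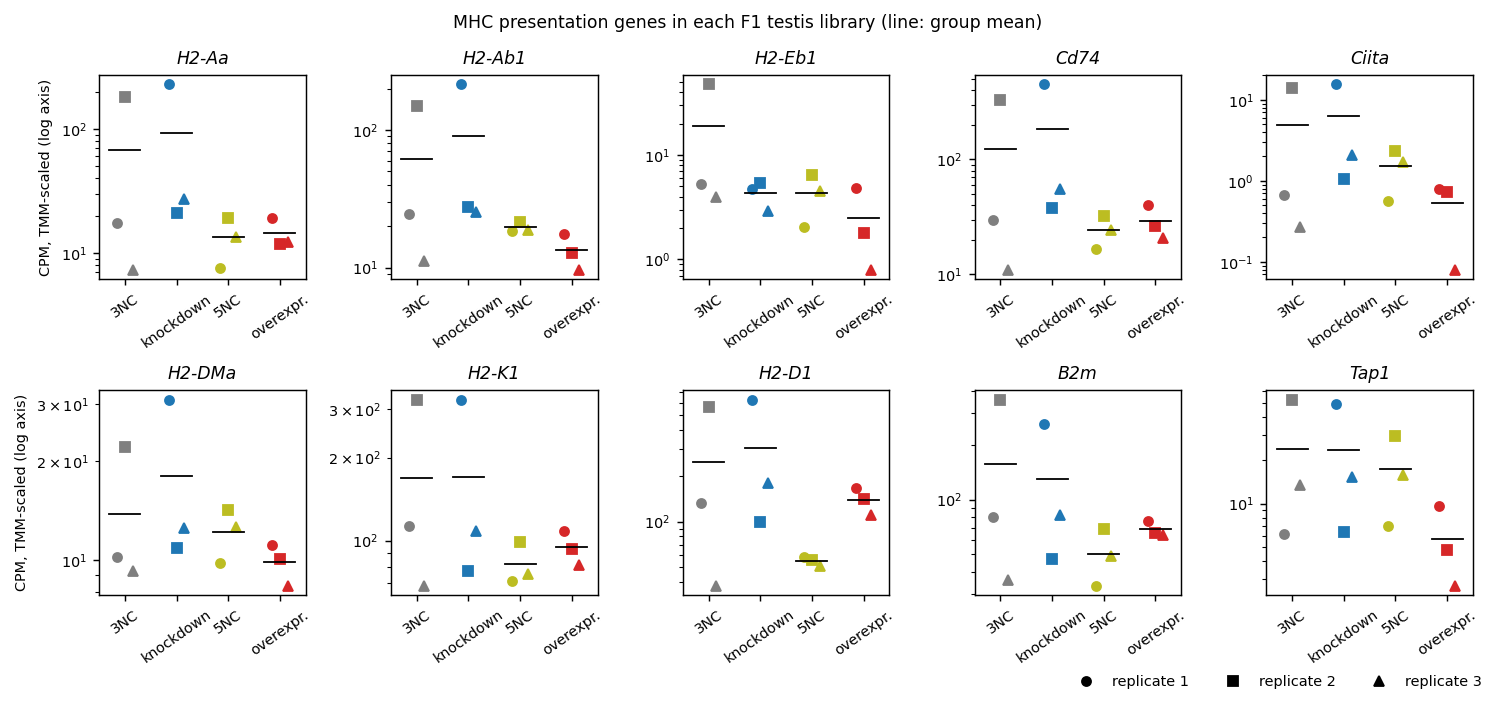
CPM on a log axis of each of the 10 genes in the 12 F1 testis libraries, by group, with a line at the group mean and a marker shape for the replicate number. In every panel except that of H2-Eb1, 3NC replicate 2 and knockdown replicate 1 lie above the other 10 libraries, and in the panel of H2-D1 the overexpression points lie above the 5NC points.

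Against the median of the other 10 libraries, 9 of the 10 genes were higher than all of these 10 in both 3NC replicate 2 and knockdown replicate 1. The same was true of 13.9% of the 16388 genes tested, so these libraries stood apart in many genes outside the 10 as well. As these libraries were picked for their values, no test is given. Ciita showed the widest gap, at 18.1 times the median in 3NC replicate 2 and 20.7 times in knockdown replicate 1. Cd74 stood at 11.7 and 16.2 times, H2-Aa at 11.6 and 14.9 times and H2-Ab1 at 7.99 and 11.6 times. H2-DMa had the smallest gap in 3NC replicate 2, at 2.10 times the median, and stood at 2.94 times in knockdown replicate 1. The class II genes with the exception of H2-DMa and H2-Eb1 thus had wider gaps than the class I genes, for which the multiples were 3.69 and 3.71 (H2-K1), 5.34 and 5.97 (H2-D1), 5.53 and 4.05 (B2m) and 6.32 and 5.89 (Tap1). H2-Eb1 stood at 11.3 times in 3NC replicate 2 and 1.10 times in knockdown replicate 1.

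The marker lists were read in the same way, by their summed CPM. White blood cell markers stood at 12.6 times the median of the other 10 libraries in 3NC replicate 2 and 10.8 times in knockdown replicate 1, and the 14 T and NK cell markers at 10.4 and 5.83 times. The 14 macrophage markers stood at 3.12 and 4.39 times, the 10 dendritic cell markers at 1.39 and 1.76 times and the 8 B cell markers at 0.940 and 1.51 times. The sums of the last 2 lists rest on genes with a high and even level, Zbtb46, Flt3 and Pax5, and do not describe each gene. Itgax stood at 4.35 and 6.07 times and Clec10a at 3.06 and 7.65 times. Cd79b was at 0.684 and 1.64 CPM, on 11 and 26 reads, and at most 0.266 CPM in the others. Both libraries lay above the other 10 for 3 of the 6 dendritic cell markers tested, 0 of the 4 B cell, 11 of the 13 macrophage, 7 of the 8 T and NK cell and 7 of the 8 white blood cell markers. Endothelial (1.61 and 1.09 times), Leydig (1.13 and 0.879 times), Sertoli (1.13 and 0.994 times) and germ cell markers (0.798 and 0.814 times) were read likewise. The 6 markers of lymph node stroma stood at 1.23 and 2.15 times and the 11 epididymis markers at 5.16 and 1.57 times. Cd3e, a chain of the T cell receptor complex, was at 4.10 and 3.60 CPM in these libraries and at most 0.465 CPM in the others. Cd79a, a chain of the B cell receptor complex, was at 0.124 CPM in 3NC replicate 2, 2.66 CPM in knockdown replicate 1 and at most 0.266 CPM in the others, with 0 in 4 libraries. White blood cell, T and NK cell and macrophage markers thus moved together with the presentation genes in these 2 libraries, and the part of the former in each result below was not tested. In whole testis, fewer cells of a type and less RNA per cell cannot be told apart.

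**Figure D2:**
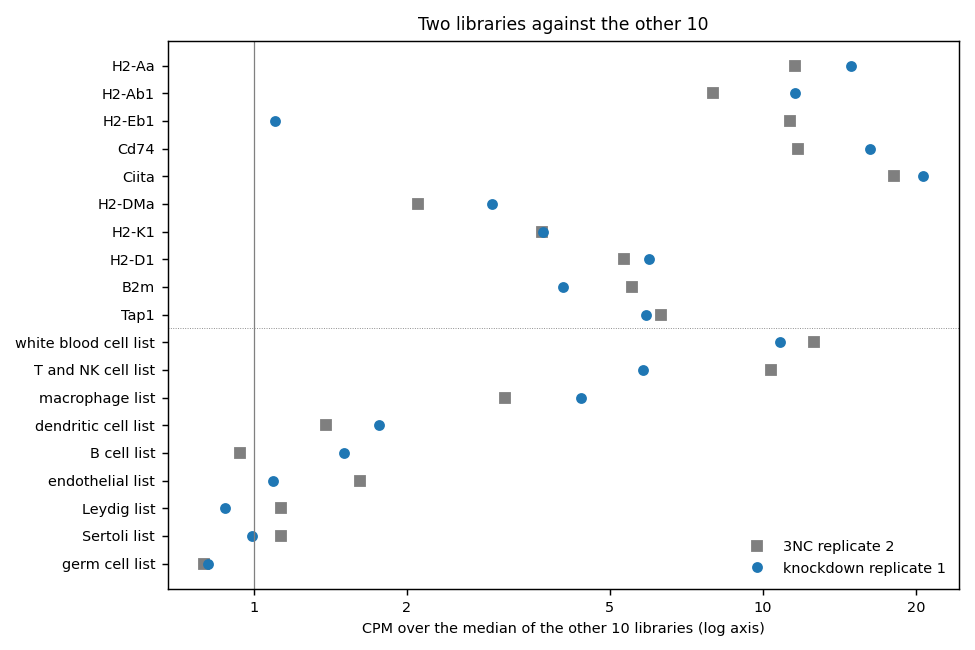
CPM of each gene, and summed CPM of each marker list, in 3NC replicate 2 (squares) and knockdown replicate 1 (circles), divided by the median of the other 10 libraries on a log axis. Ciita, Cd74, H2-Aa and the white blood cell list lie at 10 times or more in both libraries, the germ cell list lies at 0.798 and 0.814, and H2-Eb1 lies at 11.3 and 1.10.

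The genes were then compared with each other over the libraries, as a description of points that share a library. Pearson's r of log2(CPM + 0.5) between pairs of the 10 genes (45 pairs) had a median of 0.89 over 12 libraries, from 0.44 (H2-Eb1 with H2-D1) to 0.99 (H2-Aa with Cd74). Without the 2 libraries that stood apart the median was 0.61, from -0.42 (H2-D1 with Tap1) to 0.97 (Ciita with H2-DMa). Among 15423 genes outside the list, those most like the mean of H2-Aa, H2-Ab1 and H2-Eb1 were Itgb2 (r = 0.97), Metrnl (0.97), Nkg7 (0.97), Klrk1 (0.97) and Icos (0.97), with r of 0.82, 0.78, 0.74, 0.73 and 0.79 without these libraries. Ranked over the other 10 libraries alone, the 5 most like were other genes, namely Zkscan5 (r = 0.92, and -0.31 over 12 libraries), Olfml3 (0.90), Sorcs2 (0.85, and 0.11 over 12 libraries), Slc6a4 (0.85) and Ikbkb (0.85). Itgb2 is an integrin chain of white blood cells, Nkg7 a granule protein of cytotoxic lymphocytes, Klrk1 a receptor of NK cells and Icos a costimulatory receptor of T cells. Those most like the mean of H2-K1, H2-D1 and B2m were H6pd (0.97), Creb5 (0.97), Serping1 (0.97), Rasa4 (0.97) and Lyz2 (0.97), with r of 0.92, 0.84, 0.82, 0.83 and 0.81 without them. Over the other 10 libraries alone they were H6pd (0.92), Pcsk7 (0.92), Dmkn (0.88), Btbd9 (0.88) and Myo1f (0.86), of which H6pd is on both lists. Over 12 libraries Pcsk7 was at 0.20 and Btbd9 at -0.05. Lyz2 encodes the lysozyme of macrophages and granulocytes.

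The comparison of the knockdown group with 3NC asked whether offspring of males given the knockdown virus differed. By edgeR's quasi-likelihood test, 0 of the 10 genes passed an adjusted p of 0.05 (Benjamini-Hochberg), beside 0% of all genes tested (0 of 16388). Of the 10, 1 was at an unadjusted p under 0.05, H2-Eb1, beside 5.64% of all genes. Its mean was 4.32 ± 1.28 CPM (SD, n = 3) in the knockdown group and 19.1 ± 25.0 CPM in 3NC (log2 fold change -2.14, SE 0.89, edgeR adjusted p = 0.764). The 3NC mean rests on replicate 2, and without that library the log2 fold change was -0.09. In 0 of the 10 genes did the groups not overlap, beside 11.3% of all genes in either direction. The median log2 fold change was 0.33 for the 10 genes and -0.02 for all genes, with 7 of the 10 above 0. Epididymis markers (11 genes) summed to 37.4 to 79.2 CPM in 3NC and 6.91 to 24.1 CPM in the knockdown group. Most of this gap lay in Crisp1 (mean 40.1 CPM in 3NC and 4.63 CPM in the knockdown group). Of the 6 tested, 5 had a log2 fold change below 0. Rnase10 was higher in the knockdown group with no overlap (4.19 to 6.01 against 2.61 to 4.05 CPM). Of the 8 Leydig cell markers, 6 had a log2 fold change below 0 (median of the list -0.54, 0 called). In 3 of these the groups did not overlap, among them Lhcgr, the receptor of luteinizing hormone (mean 5.95 against 13.7 CPM). Another was Cyp17a1, an enzyme of androgen synthesis (263 against 591 CPM). Its groups nearly met, at up to 308.7 CPM in the knockdown group and from 308.9 CPM in 3NC. The 2 other markers were higher, Insl3 (658 against 551 CPM) and Hsd3b1 (114 against 101 CPM). The part of either list was not tested.

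The largest positive difference was that of Cd74, at 182 ± 236 CPM in the knockdown group and 123 ± 178 CPM in 3NC (SD, n = 3; log2 fold change 0.57, SE 1.09, edgeR adjusted p = 0.901). Each group held 1 of the 2 high libraries, and its SD was larger than its mean. Leaving out 3NC replicate 2 took the log2 fold change of Cd74 to 3.15, and leaving out knockdown replicate 1 took it to -1.41. For H2-Aa these values were 2.90 and -1.50, for Ciita 3.73 and -1.64, and for H2-D1 1.82 and -0.81. Leaving out both libraries gave 1.19 for Cd74 (SE 0.45), 0.96 for H2-Aa (SE 0.44), 1.74 for Ciita (SE 0.81) and 0.70 for H2-D1 (SE 0.45), each with an edgeR adjusted p of 0.904. In the libraries then left, the white blood cell markers summed to 33.7 and 39.4 CPM in the knockdown group and 33.9 and 22.6 CPM in 3NC, and without Cd52 to 31.4 and 36.0 against 25.1 and 16.95 CPM, and their part was not tested. The fit without both made 0 calls among all genes, of which 4.27% were at an unadjusted p under 0.05, as was Cd74 alone of the 10. H2-K1 was nearly level in the fit of 12 libraries (0.02, SE 0.56) and without both (0.04).

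In the comparison of the overexpression group with 5NC, neither group holds 3NC replicate 2 or knockdown replicate 1, but their own libraries also differed. The chi-square per degree of freedom of the counts was 20.8 and 12.2 between 5NC replicate 1 and the other 5NC libraries, beside 3.50 between those, and 17.6 and 15.5 between overexpression replicate 3 and the others of its group, beside 4.63 between those. Again 0 of the 10 genes passed by edgeR's adjusted p, beside 0.311% of all genes (51 genes), and 0 were at an unadjusted p under 0.05, beside 11.9% of all genes. H2-D1 was at 139 ± 27.8 CPM in the overexpression group and 55.2 ± 4.08 CPM in 5NC (SD, n = 3), or 2.52-fold higher (log2 fold change 1.33, SE 0.82, edgeR adjusted p = 0.571). The groups did not overlap in 2 of the 10 genes, beside 21.3% of all genes in either direction. These were H2-D1, higher in the overexpression group, and H2-Ab1, lower, at 13.3 ± 4.04 against 19.7 ± 1.68 CPM and a log2 fold change of -0.56 (SE 0.97, edgeR adjusted p = 0.886). H2-D1 passed when the 6 libraries of these groups were fitted alone (log2 fold change 1.34, edgeR adjusted p = 0.0103), beside 0.675% of all genes (107 of 15852), a fit in which the spread of 3NC and the knockdown group has no part. Without the 2 libraries that stood apart, which are in neither group, its SE was 0.37 and its edgeR adjusted p was 0.109. In that fit 3 of the 10 were at an unadjusted p under 0.05 (H2-D1, Tap1 and Ciita), beside 16.5% of all genes. DESeq2 and limma did not call it. The log2 fold change lay between 1.19 and 1.48 with each library of these groups left out in turn, while the call depended on which libraries gave the spread.

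The other class I genes gave values on either side of 0 in this comparison. Tap1, the peptide transporter subunit, was at 5.70 ± 3.54 CPM against 17.5 ± 11.3 CPM in 5NC, a log2 fold change of -1.60 (SE 0.90, edgeR adjusted p = 0.523), which ran from -2.21 without overexpression replicate 1 to -0.997 without 5NC replicate 2. H2-K1 was at 94.5 ± 13.5 against 81.9 ± 14.6 CPM (0.21, SE 0.57) and B2m at 68.4 ± 6.63 against 50.1 ± 17.5 CPM (0.45, SE 0.76). Of the class II genes, Ciita was at 0.534 ± 0.394 against 1.53 ± 0.894 CPM (-1.46, SE 1.48), H2-Eb1 at 2.49 ± 2.12 against 4.35 ± 2.21 CPM (-0.78, SE 0.92, and -1.71 without overexpression replicate 1) and H2-DMa at 9.83 ± 1.40 against 12.2 ± 2.23 CPM (-0.31, SE 0.41). H2-Aa (0.11, SE 1.14) and Cd74 (0.25, SE 1.14) had small positive values. The smallest edgeR adjusted p of these 8 genes was that of Tap1. The median log2 fold change of the 10 genes was -0.10 and that of all genes -0.01, with 5 above and 5 below 0. The 8 white blood cell markers summed to 22.8 to 64.0 CPM in 5NC and 18.3 to 30.7 CPM in the overexpression group, a gap carried by Cd52. Without it, a sum taken after seeing the data, the medians were 20.2 CPM in 5NC and 24.7 CPM in the overexpression group. Of the 8, 5 had a log2 fold change above 0 (median 0.10). The epididymis markers summed to 22.1 to 289 and 5.00 to 6.71 CPM, of which Crisp1 alone was at 9.86 to 239 and 0.0793 to 0.197 CPM. The part of these markers in the values above was not tested.

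The vector controls, 5NC and 3NC, were compared as background, with the same 3NC libraries as above. By edgeR's adjusted p, 0 of the 10 genes passed, beside 0.128% of all genes (21 genes). All 10 had a log2 fold change below 0, with a median of -1.67, where the median of all genes was -0.02. White blood cell markers were below 0 in 8 of 8 genes tested (median -2.39) and T and NK cell markers in 8 of 8 (median -1.62). Macrophage markers were below 0 in 12 of 13 (median -0.65). These medians include 3NC replicate 2. In 3NC replicates 1 and 3 the white blood cell markers summed to 33.9 and 22.6 CPM, beside 22.8 to 64.0 CPM in 5NC. The T and NK cell markers summed to 20.6 and 14.2 CPM there, beside at most 14.7 CPM in 5NC. The macrophage markers summed to 147 and 121 CPM there, beside 138 to 151 CPM in 5NC. Epididymis markers were above 0 in 6 of 6 (median 1.31). The part of these lists was not tested. Of the 10, 2 were at an unadjusted p under 0.05, both lower, beside 10.8% of all genes, namely H2-D1 (-2.15, SE 0.84, edgeR adjusted p = 0.410) and H2-Eb1 (-2.14, SE 0.89, edgeR adjusted p = 0.437). In 0 of the 10 did the groups not overlap, beside 13.0% of all genes in either direction. For 6 of the 10 the direction rested on 3NC replicate 2. Without the 2 libraries that stood apart, the values were 0.10 for H2-Aa, 0.13 for H2-Ab1, 0.26 for Cd74, 1.68 for Ciita, 0.32 for H2-DMa and 0.83 for Tap1, above 0, and -0.10 for H2-Eb1, -0.15 for H2-K1, -0.63 for H2-D1 and -0.21 for B2m.

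Whether the 2 virus effects differed was tested as knockdown against 3NC minus overexpression against 5NC. For 0 of the 10 genes did the difference pass by edgeR's adjusted p, beside 0.0244% of all genes (4 genes), and 0 were at an unadjusted p under 0.05, beside 4.63%. The widest differences were those of Ciita (1.82, SE 1.92), Tap1 (1.58, SE 1.23) and H2-Eb1 (-1.36, SE 1.27). With each library left out in turn, Ciita ran from -0.18 without knockdown replicate 1 to 5.18 without 3NC replicate 2, Tap1 from 0.46 to 2.87 without the same libraries, and H2-Eb1 reached 0.69 without 3NC replicate 2. Without both libraries, 3 of the 10 were at an unadjusted p under 0.05, beside 6.71% of all genes, namely Ciita (3.18, SE 1.04), H2-Ab1 (1.11, SE 0.42) and H2-DMa (0.57, SE 0.26), and none passed by edgeR's adjusted p. Of the other pathway genes, those with the smallest p-values were Psmb9 (1.99) and Irf1 (2.23) above 0 and Ctsl (-0.41) and Canx (-0.14) below it, and none passed. With each library left out in turn Psmb9 ran from 0.88 (without knockdown replicate 1) to 3.53 (without 3NC replicate 2) and Irf1 from 0.66 to 4.99 without the same libraries. Without 3NC replicate 2 Ctsl was at -0.11, and without overexpression replicate 3 Canx was at -0.025.

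**Figure D3:**
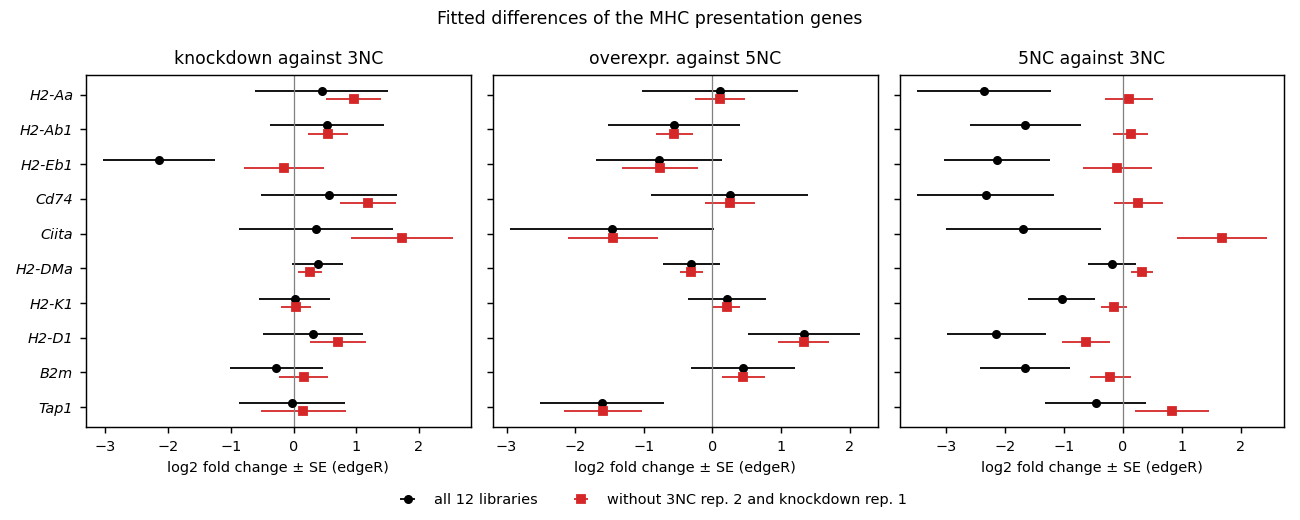
Log2 fold changes with standard errors by edgeR of the 10 genes in 3 comparisons, from all 12 libraries (black circles) and without 3NC replicate 2 and knockdown replicate 1 (red squares). In the panel of 5NC against 3NC the black circles all lie below 0 and 6 of the 10 red squares lie above it, while in that of overexpression against 5NC both fits give H2-D1 at 1.33 with a shorter bar in the second.

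Ratios between genes of 1 library do not depend on how libraries are scaled. They were looked at after the levels had been seen, so their p-values are a description only. H2-Eb1 reads were counted as a share of the reads of H2-Aa, H2-Ab1 and H2-Eb1. The share was 11.0%, 12.7% and 17.8% in 3NC replicates 1, 2 and 3, 81 of 810 reads and 5.25% in knockdown replicates 2 and 3, and 1.03% in knockdown replicate 1 (95% exact binomial interval 0.813 to 1.30%). It was 7.32%, 13.7% and 12.2% in 5NC and 11.7%, 6.85% and 3.50% in the overexpression group. Each knockdown share lay below each 3NC share, at 5.43 ± 4.49% against 13.8 ± 3.50% (SD, n = 3), and an exact permutation test (two-sided) gave p = 0.1, the smallest that 3 against 3 libraries allow. The nearest pair, knockdown replicate 2 (interval 8.02 to 12.3%) and 3NC replicate 1 (8.83 to 13.6%), could not be told apart at this depth. For overexpression against 5NC the exact p was 0.2 and for 5NC against 3NC 0.5. Intervals cover counting error only, and the depth behind these shares was 286 to 7153 reads. H2-Ea-ps, the row of the table named for the alpha chain partner of H2-Eb1, held 27 estimated reads in knockdown replicate 1, 20 in 3NC replicate 2 and 1 to 42 in the other libraries.

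H2-D1 reads were counted as a share of those of H2-K1 and H2-D1 together. The share was 60.5%, 60.1% and 57.5% in the overexpression group and 45.2%, 36.2% and 40.2% in 5NC, so these groups did not overlap. As H2-D1 itself had been seen not to overlap between them and H2-K1 to overlap, the share gives no separate support. The means were 59.4 ± 1.60% and 40.5 ± 4.53% (SD, n = 3), a difference of 18.9 percentage points (exact permutation test, two-sided, p = 0.1, the smallest possible). In the knockdown group the share was 66.0%, 56.2% and 62.2% and in 3NC 54.1%, 63.5% and 35.6%, with an exact p of 0.3. The 5NC and 3NC shares gave an exact p of 0.4. The 3NC libraries thus ran from below the 5NC values to above those of the overexpression group. With the authors' FPKM in place of reads, an alternative added after the data were seen, the mean shares of H2-D1 were 58.9% in the overexpression group and 40.8% in 5NC. Summed over H2-K1, H2-D1 and the rows named H2-Q, likewise added, class I reads gave a log2 fold change of 0.72 for overexpression against 5NC (edgeR adjusted p = 0.751), 0.18 for knockdown against 3NC (0.951) and -1.55 for 5NC against 3NC (0.461).

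**Figure D4:**
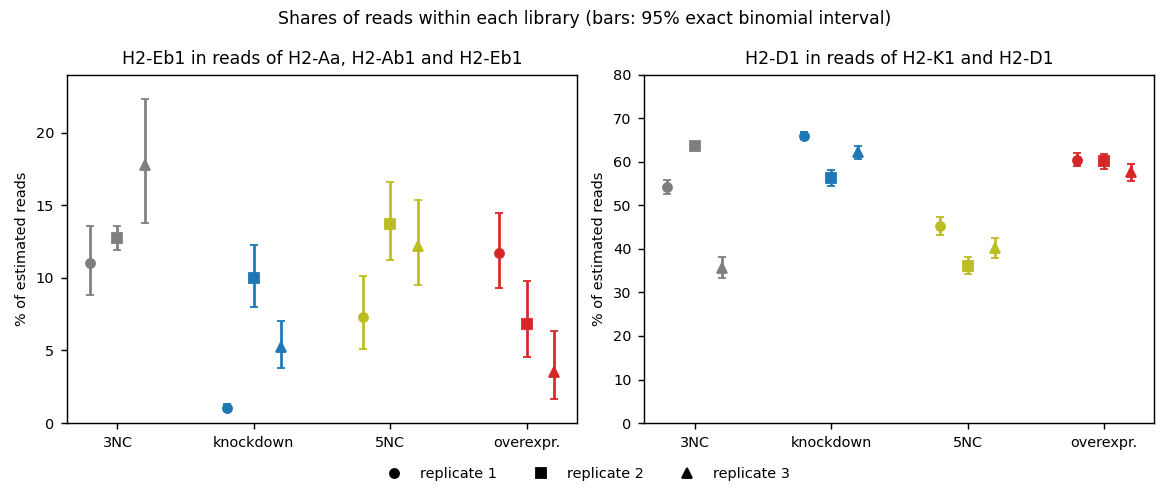
Share of H2-Eb1 among the estimated reads of H2-Aa, H2-Ab1 and H2-Eb1 (left) and of H2-D1 among those of H2-K1 and H2-D1 (right), in percent, for each library by group, with bars for the 95% exact binomial interval. The lowest point on the left is knockdown replicate 1 at 1.03%, and on the right the overexpression points at 57.5% to 60.5% lie above the 5NC points at 36.2% to 45.2%.

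The remaining genes of the pathways were taken from lists of names. Of 19 names for class II loading and regulation, 17 were in the table and 15 were tested. Of 18 names for class I loading and its interferon response, all were tested. In each of the 4 comparisons 0 genes of either list passed by edgeR's adjusted p. Both 3NC replicate 2 and knockdown replicate 1 lay above the other 10 libraries for 6 of the 15 and for 15 of the 18, beside 13.9% of all genes tested. Ctss, the protease that trims the invariant chain, was at 202 and 203 CPM in these libraries and at most 18.6 CPM in the others. Psmb8, an immunoproteasome subunit, was at 48.7 and 54.9 CPM and at most 14.1 CPM in the others. By contrast Nfya, a subunit of the NF-Y factor that binds CCAAT boxes, was at 27.1 and 29.4 CPM and at most 31.6 CPM in the others, and the chaperone Calr was at 555 and 518 CPM and at most 545 CPM.

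In overexpression against 5NC, 16 of the 18 class I pathway genes had a log2 fold change below 0 (median -0.55, that of all genes -0.01). In 6 of them, all lower, the groups did not overlap, beside 21.3% of all genes in either direction. The genes share the same libraries, so these counts are not 18 separate results. Psmb9, an immunoproteasome subunit encoded next to Tap1, was at 2.56, 2.66 and 2.22 CPM in the overexpression group and 4.06, 12.2 and 7.66 CPM in 5NC (log2 fold change -1.68, SE 0.87, edgeR adjusted p = 0.479). Irf1, a transcription factor of the interferon response, was at 4.14, 4.06 and 3.25 CPM in the overexpression group and 8.67, 24.1 and 16.3 CPM in 5NC (-2.09, SE 1.14, edgeR adjusted p = 0.507). Tap1, Psmb9 and Irf1 all had their highest 5NC value in replicate 2 and their lowest in replicate 1. On the positive side the smallest p-values were those of Nfyc (0.17) and Irf2 (0.22). Irf2 ran from 0.11 without overexpression replicate 2 to 0.39 without overexpression replicate 3. In knockdown against 3NC the class I pathway list had a median of 0.01 and the class II list 0.00, and the genes chosen by smallest p were Tapbpl (0.55, from 0.20 without knockdown replicate 1 to 0.97 without 3NC replicate 2), Nfya (0.07), Ctsl (-0.33, and -0.031 without 3NC replicate 2) and Canx (-0.19). In 5NC against 3NC the medians were -0.30 and -0.20. Rfx5 was at 0.21 (0.13 without 5NC replicate 2), Nfya at 0.16 and Ctsl at -0.45 (-0.16 without 3NC replicate 2).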

How the data were processed

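RNA-seq of 12 testis libraries was analysed, with groups and replicate numbers taken from the sample titles. The deposited estimated counts per gene were made by the authors from reads aligned with SOAPaligner 2.20 (build mm10 per the labels). They hold fractions for 17.3% of genes, were not scaled and were rounded here. The FPKM values in the table were computed by the authors, who called genes with DEGseq, a test without a term for the spread between libraries. The labels name total RNA, and the methods oligo(dT) enrichment. The 18 per-sample columns of other groups were not used.

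All libraries entered 1 edgeR 4.0.16 fit (R 4.3.3, TMM, filterByExpr, quasi-likelihood test with 8 residual degrees of freedom), adjusted by Benjamini-Hochberg over 16388 genes with a threshold of 0.05. Standard errors are the log2 fold change over the root of F. The script was tested on simulated data. Shares were compared by exact permutation. Alternatives were RLE factors, no filter, a replicate block, only the groups compared, libraries left out, DESeq2 1.42.0, limma 3.58.1 on CPM and on log2(FPKM + 0.1) or log2(FPKM + 1), and the study's thresholds (adjusted p 0.001, log2 fold change 1). The 10 genes, the lists and the alternatives were chosen with earlier results of these data known. Genes outside the 10 were named by smallest p (2 in each direction per comparison over the pathway lists) or by highest r, apart from examples. Genes of the marker lists, such as Cd3e and Cyp17a1, and H2-T23, Hfe and Mr1 of the class I-like list are examples picked by no such rule. Ptprc was named because earlier results showed it, and Ctss, Psmb8, Calr and H2-Ea-ps after their values were seen. Gene positions and promoter windows are from RefSeq (GRCm38.p6), matched by gene ID for 10 of 10 genes.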

Additional observations from a re-analysis of the deposited data

How the results depend on the processing

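No member gene was called in any comparison under the RLE factors, without the filter, with the replicate block, with DESeq2, with limma on CPM or FPKM, at the study's thresholds or with any library left out, with 1 exception. Fitting only the libraries compared called 1 gene in overexpression against 5NC, H2-D1 (1.34, edgeR adjusted p = 0.0103, beside 0.675% of all genes called), and 3 of the 10 (H2-D1, H2-Ab1 and Tap1) then had an unadjusted p under 0.05, beside 15.7% of all genes. Ciita did not pass the FPKM filter and has no FPKM fit, and the difference of the effects has no fit of fewer groups. Mean CPM moved by less than 1 SD under RLE factors in 40 of 40 cases.

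Whether replicate numbers pair the samples could not be decided from the libraries. Deviations from group means of same-numbered libraries correlated at -0.58, -0.71 and 0.44 for the knockdown group and 3NC. They correlated at 0.25, -0.18 and 0.21 for the overexpression group and 5NC, and at 0.39, 0.21 and 0.03 for 5NC and 3NC. Deviations of 3 libraries sum to 0, and the 2 libraries that stood apart, with different numbers, correlated at 0.82, so the negative values do not speak against pairing. The block called 0 of the 10 genes in each comparison, took B2m (0.0062) and Tap1 (0.14) above 0 in knockdown against 3NC, and made 21 calls among all genes for overexpression against 5NC (51 without it), 5 for 5NC against 3NC (21 without it) and 2 for the difference (4 without it).

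In all, 57 of the values of the 10 genes under these alternatives changed sign, none of them a called value. For knockdown against 3NC, Tap1 turned positive with limma on CPM (0.050), log2(FPKM + 0.1) (0.034) and log2(FPKM + 1) (0.022), and without both libraries B2m (0.16) and Tap1 (0.16) did. Without both, 5NC against 3NC gave H2-Aa 0.10, H2-Ab1 0.13, Cd74 0.26, Ciita 1.68, H2-DMa 0.32 and Tap1 0.83, and the difference of effects gave H2-Eb1 0.62. With each library left out in turn, the ranges that crossed 0 were, for knockdown against 3NC, those of B2m (-1.29 to 1.17), Cd74 (-1.41 to 3.15), Ciita (-1.64 to 3.73), H2-Aa (-1.50 to 2.90), H2-Ab1 (-1.23 to 2.32), H2-D1 (-0.81 to 1.82), H2-DMa (-0.25 to 0.89), H2-K1 (-0.85 to 0.91) and Tap1 (-1.15 to 1.27). For overexpression against 5NC they were Cd74 (-0.059 to 0.50) and H2-Aa (-0.18 to 0.45). For 5NC against 3NC they were Cd74 (-2.85 to 0.26), Ciita (-2.23 to 1.68), H2-Aa (-2.87 to 0.10), H2-Ab1 (-2.13 to 0.13), H2-DMa (-0.39 to 0.32) and Tap1 (-1.09 to 0.83). For the difference they were B2m (-1.74 to 0.72), Cd74 (-1.66 to 2.90), Ciita (-0.18 to 5.18), H2-Aa (-1.61 to 2.79), H2-Ab1 (-0.68 to 2.88), H2-D1 (-2.15 to 0.49), H2-Eb1 (-1.83 to 0.69) and H2-K1 (-1.06 to 0.70). The lowest or highest value of each range of knockdown against 3NC came without knockdown replicate 1 or 3NC replicate 2.

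Calls among all genes in overexpression against 5NC were 51 as reported, 313 with DESeq2, 107 with only the 6 libraries, 159 without both libraries, 82 on log2(FPKM + 0.1) and 5 at the study's thresholds. DESeq2 called 16, 166 and 42 in the other comparisons. With each library left out in turn the calls among all genes were 0 to 12 for knockdown against 3NC (12 without 3NC replicate 3), 9 to 49 for overexpression against 5NC (9 without 5NC replicate 2 or 3), 3 to 35 for 5NC against 3NC (35 without 3NC replicate 2) and 2 to 10 for the difference (10 without 3NC replicate 3). With 3 libraries a group, and few reads for Ciita and H2-Eb1, differences smaller than these spreads were not detectable.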

Other observations

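The non-classical and class I-like genes followed the same libraries. Of 20 names 18 were in the table and 13 were tested, and for 10 of the 13 both 3NC replicate 2 and knockdown replicate 1 lay above the other 10 libraries, beside 13.9% of all genes tested. H2-T23, which encodes the Qa-1 molecule that NK cells read, was at 47.9 and 38.6 CPM there and at most 11.4 CPM in the others. H2-Q7, which encodes a Qa-2 molecule, was at 16.2 and 7.14 CPM and at most 1.59 CPM in the others, and in 5NC against 3NC its log2 fold change was -3.12 (SE 1.13, edgeR adjusted p = 0.391). That value rested on 3NC replicate 2, without which, in a fit added after seeing the data, it was -0.83 (edgeR adjusted p = 0.799). Hfe, an iron-regulating relative of class I, was at 10.6 and 11.4 CPM and at most 11.2 CPM in the others, and Mr1, which shows vitamin metabolites to T cells, was at 4.54 and 3.41 CPM and at most 3.86 CPM. None of the 13 passed by edgeR's adjusted p in any of the 4 comparisons. In overexpression against 5NC, 9 of the 13 had a log2 fold change below 0, with a median of -0.16, and in knockdown against 3NC 10 of the 13, with a median of -0.12. In 5NC against 3NC 10 of the 13 were below 0, with a median of -1.06. There the 18 genes summed to 221 CPM in 3NC replicate 2, to 63.7 and 48.0 CPM in 3NC replicates 1 and 3 and to 60.3 to 67.5 CPM in 5NC.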
